A study of Mus musculus with 24 samples.

Results

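The 39 genes described here make, coat, break down and regulate the triglyceride store of fat cells. They were listed by name, and all 39 had a line among the 53465 genes of the count table. By role, 7 take up or bind fatty acids, 8 coat or build lipid droplets, 6 are lipases, their cofactors or the glycerol exit channel, 9 are receptors or receptor partners that control lipolysis, 4 are G proteins or other parts of the cAMP branch, and 5 are other genes typical of fat cells. Messenger RNA was measured in cells of the stromal vascular fraction of epididymal (eWAT) and inguinal (iWAT) white fat of mice, turned into adipocytes in culture with IBMX, dexamethasone and insulin for 2 days and with insulin for 5 more. The series crosses depot, genotype and siRNA in 8 groups of 3 libraries, and its title names the removal of SUMO, a small protein tag, from C/EBPβ by SENP2 as its subject. The aKO cultures came from mice labelled Senp2flox/flox with Adipoq Cre, and the Cont cultures from mice labelled Senp2flox/flox without it, so both genotypes carry the floxed allele. Adipoq Cre is driven by the adiponectin promoter, which is active in differentiating and mature fat cells and not in the progenitors that start such a culture. In each depot and genotype, cells received siC/EBPb, directed against the mRNA of C/EBPβ, or siNS. The 4 groups of a depot are therefore aKO with siC/EBPb, Cont with siC/EBPb, aKO with siNS and Cont with siNS. Age is not given in the labels, which also do not say whether replicates were separate mice or dishes. The p-values therefore reflect the spread among the libraries alone, which may be technical.

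Fat cells take up fatty acids that lipoprotein lipase frees from circulating lipoproteins, carry them on binding proteins and store them as triglyceride in droplets coated by perilipins. When catecholamines act on β-adrenergic receptors, Gs raises cAMP, protein kinase A acts on perilipin 1 and hormone-sensitive lipase, and adipose triglyceride lipase, hormone-sensitive lipase and monoglyceride lipase remove the fatty acids in turn. Insulin lowers cAMP through phosphodiesterase 3B, and adenosine, lactate and β-hydroxybutyrate lower it through receptors coupled to Gi, while natriuretic peptides act through cGMP. C/EBPβ is induced early in adipogenesis and promotes expression of C/EBPα and PPARγ, which activate many of these genes.

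Gene counts per library ranged from 8435494 to 15388744 in 23 libraries, and iWAT aKO siNS replicate 2 held 603585, with 93.3% of its listed reads not aligned. A level in that library can rest on a few reads, as with 1 count for Cyp2e1 and 15 for Adora1. It also departed from its group for some abundant genes. Counts of genes that passed are given with and without it for aKO against Cont with siNS and for siC/EBPb in aKO cells. Group means, fold changes and p-values of its group include it unless said otherwise. Cebpb, the target of the siRNA, averaged 18.5 ± 5.43 CPM (counts scaled by library size) in iWAT aKO siC/EBPb cells against 115 ± 11.9 with siNS, and 36.01 ± 2.02 in iWAT Cont siC/EBPb cells against 125 ± 18.3 with siNS (SD, n = 3 each). In eWAT it averaged 27.4 ± 6.49 against 151 ± 8.68 CPM in aKO cells and 50.4 ± 7.56 against 168 ± 12.5 CPM in Cont cells. Senp2 counts averaged 47.6 ± 4.82 CPM in eWAT aKO siNS and 54.5 ± 2.35 CPM in eWAT Cont siNS cells, but the removed exons are not given, so a whole-gene count does not check the deletion. Adipoq, Pparg and Cebpa, markers of fat cells, were detected in all 24 libraries, with Adipoq at 126, 157 and 185 CPM in eWAT aKO siNS against 58.2, 80.2 and 70.6 CPM in eWAT Cont siNS. Fibroblast and progenitor markers were abundant beside them: 16 such genes summed to 34887, 33008 and 32734 CPM in eWAT aKO siNS against 36801, 38212 and 37830.4 CPM in eWAT Cont siNS, and to 60885 CPM in the shallow library against 31792 and 32128 CPM in the other libraries of its group. In bulk RNA, fewer cells of a type and less RNA per cell cannot be told apart.

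Of the 39 genes, 36 had enough counts to be tested among the 14785 genes that passed the count filter, and Gpihbp1, Plin5 and Adrb1 did not. Per kilobase of transcript in eWAT Cont siNS cells, Fabp4, the fatty acid carrier aP2, stood highest at 516 CPM per kb. Lpl (lipoprotein lipase, 246 CPM per kb), Gnas (the Gs α subunit, 234 CPM per kb), Plin2 (a droplet coat protein of many cell types, 117 CPM per kb), Fabp5 (108 CPM per kb) and Pnpla2 (adipose triglyceride lipase, ATGL, 91.1 CPM per kb) followed. The receptors were far lower on this scale, from 27.9 CPM per kb for Mrap, an accessory protein of melanocortin receptors, and 9.91 CPM per kb for Adrb3, the β3-adrenergic receptor, to 1.10 CPM per kb for Adora1, the A1 adenosine receptor, 0.482 CPM per kb for Acvr1c, the receptor ALK7, and 0.322 CPM per kb for Hcar2, the receptor of β-hydroxybutyrate and niacin, the lowest of the tested ones. Adrb1, the β1-adrenergic receptor, had 0 to 5 counts in each library. Exons of 12 of the 39 genes overlap a gene on the opposite strand (Gnas, Abhd5, Lipe, Mgll, Bscl2, Fitm2, Plin4, Acvr1c, Adora1, Adrb3, Npr1 and Npr3), and no source used here gives the strand setting of the counting, so reads of such a pair may not be told apart.

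The summed level of the 39 genes followed the same order of groups in both depots. It was 2988, 4019 and 3886 CPM in iWAT aKO siC/EBPb, 4251, 3750.5 and 4412 in iWAT Cont siC/EBPb, 6508, 6487 and 7150.0 in iWAT aKO siNS and 4899.9, 5987 and 5555 in iWAT Cont siNS. In eWAT it was 2704, 3632 and 3603 in aKO siC/EBPb, 3663, 3333 and 3942 in Cont siC/EBPb, 5596, 5940.5 and 6230.5 in aKO siNS and 4402, 5208 and 4629 CPM in Cont siNS. In 10 of 11 pairs, same-numbered libraries of the depots deviated together (correlation above 0.1 over genes), so the depots are given side by side and do not replicate each other. In each depot every aKO siNS library lay above every Cont siNS library, and every siC/EBPb library lay below every siNS library of its own genotype. Abundant genes weigh most in such a sum. In the shallow iWAT aKO siNS replicate 2, uptake and binding genes summed to 3673 CPM, above all iWAT Cont siNS libraries (2186, 2845 and 2468). Its lipase group, at 435 CPM, lay within those libraries (363, 479.5 and 427). Its cAMP branch, at 819 CPM, lay under them (1093, 1121 and 1278). Within aKO siC/EBPb, replicate 1 was the lowest library in both depots. Among the single genes, 25 of the 36 tested had their highest group mean in an aKO siNS group and 27 had their lowest in an aKO siC/EBPb group. The same counts were not made over all tested genes, so whether they are unusual is not known. The iWAT aKO siNS means include the shallow library.

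**Figure D1:**
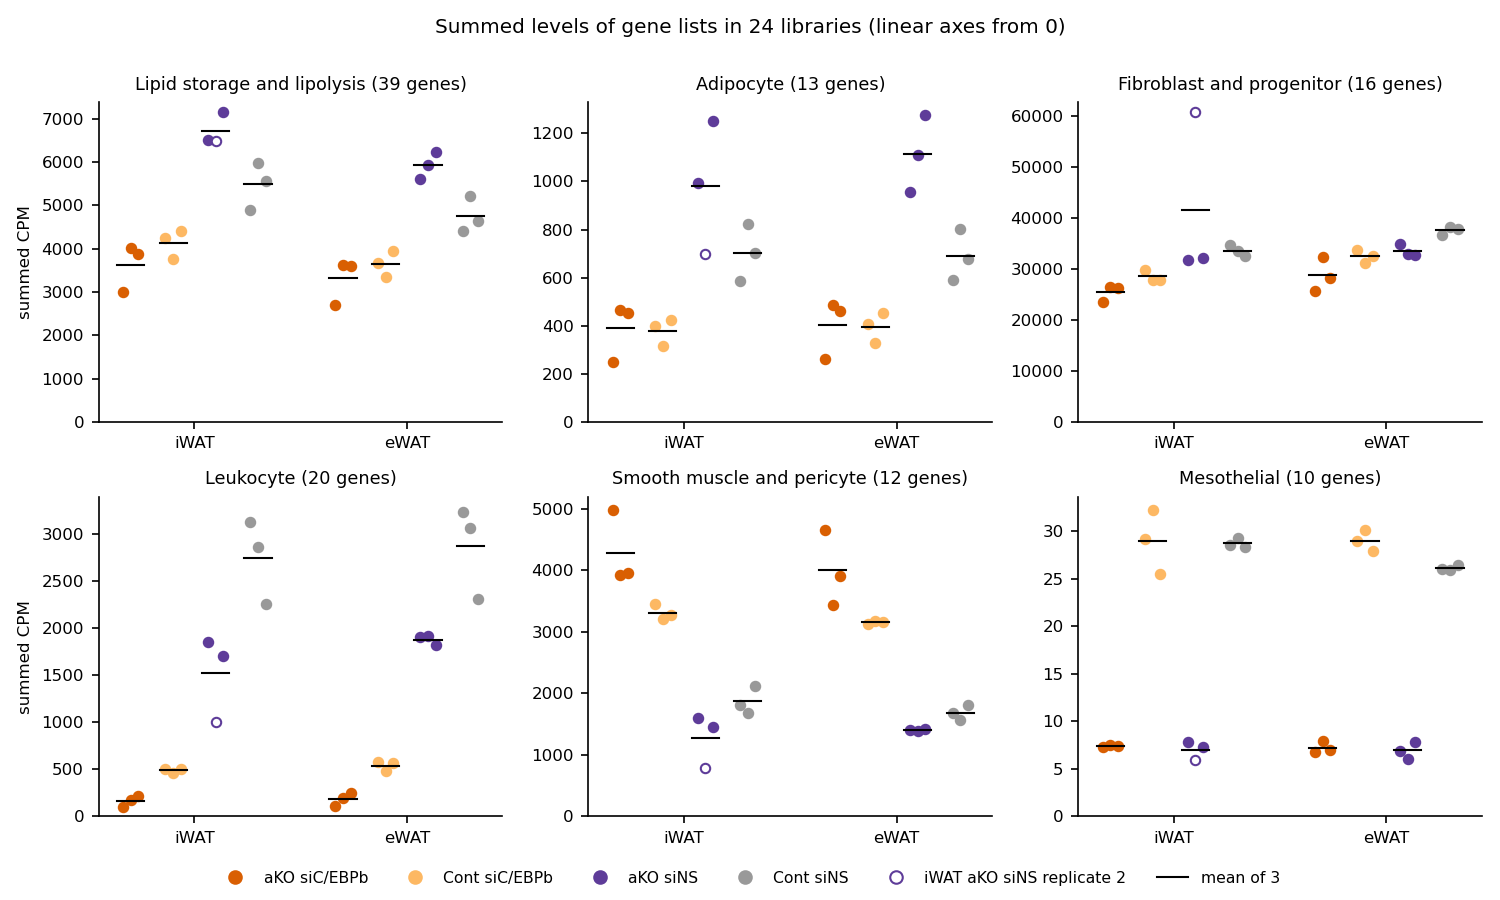
Summed CPM of the 39 lipid storage and lipolysis genes and of 5 marker lists (vertical axes, linear from 0) in each of 24 libraries, grouped by depot and by genotype and siRNA; horizontal lines are means of 3 libraries and the open circle is iWAT aKO siNS replicate 2. The 39 genes sum to 6487 to 7150 CPM in iWAT aKO siNS, against 4900 to 5987 CPM in iWAT Cont siNS, and leukocyte markers are lowest in the aKO siC/EBPb libraries.

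The first comparison asked how aKO cells differed from Cont cells when both received siNS. In iWAT, 8 of the 36 tested genes rose and none fell, against 7.32% of all 14785 tested genes that rose and 7.85% that fell. In eWAT, 11 rose and none fell, against 9.5% and 10.9% of all genes. The median log2 fold change of the tested genes was 0.32 in iWAT and 0.31 in eWAT, beside -0.0009 in iWAT and 0.0036 in eWAT over all tested genes. The genes that rose in both depots were Prkar2b, Mgll, Aoc3, Ebf1, Adora1 and Npr3. By role, none of the 6 tested uptake and binding genes passed the test in either depot. In eWAT, 3 of 6 lipases and cofactors, 2 of 7 droplet genes, 2 of 8 receptors, 1 of 4 cAMP branch genes and 3 of 5 other fat cell genes rose. In iWAT, 1 of 6 lipases and cofactors, 0 of 7 droplet genes, 3 of 8 receptors, 1 of 4 cAMP branch genes and 3 of 5 other fat cell genes rose.

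Among the receptors, Npr3, the clearance receptor that removes natriuretic peptides, had the smallest p in both depots. It stood at 28.3, 21.8 and 32.7 CPM in iWAT aKO siNS libraries, against 12.1, 13.8 and 18.2 CPM in iWAT Cont siNS libraries, with a log2 fold change of 1.06 ± 0.12 (SE) and an edgeR adjusted p of 5.53e-07. In eWAT it stood at 24.9, 28.1 and 28.5 CPM in aKO, against 14.5, 12.96 and 14.8 CPM in Cont, with a log2 fold change of 0.95 ± 0.11 (SE) and an edgeR adjusted p of 2.37e-07. No library of one genotype reached into the range of the other. Adora1, which couples to Gi and lowers cAMP, stood at 8.60, 29.7 and 15.97 CPM in iWAT aKO against 4.03, 8.32 and 6.86 CPM in iWAT Cont, and at 9.93, 10.6 and 11.9 CPM in eWAT aKO against 4.04, 6.65 and 5.77 CPM in eWAT Cont. Its log2 fold changes were 1.06 ± 0.30 (edgeR adjusted p = 0.0191) and 0.98 ± 0.27 (edgeR adjusted p = 0.0111), with no overlap of libraries in either depot. Acvr1c, an activin-type receptor that restrains lipolysis, rose in iWAT by 0.99 ± 0.30 (edgeR adjusted p = 0.0283), and its eWAT value was 0.70 ± 0.26 (edgeR adjusted p = 0.0569). Adrb3 did not pass the test in iWAT (0.45 ± 0.31, edgeR adjusted p = 0.387) or eWAT (0.41 ± 0.26, edgeR adjusted p = 0.305). Mrap and Npr1, the receptor through which atrial natriuretic peptide raises cGMP, had negative values that did not pass, from -0.60 for Mrap in iWAT to -0.49 for Npr1 in eWAT.

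Of the lipases, Mgll, which splits monoglycerides in the last step of lipolysis, stood at 65.7, 61.3 and 80.9 CPM in iWAT aKO against 43.4, 54.9 and 49.8 CPM in iWAT Cont, with a log2 fold change of 0.56 ± 0.12 (SE) and an edgeR adjusted p of 0.00192. The eWAT values were 68.1, 72.6 and 83.6 CPM in aKO against 41.6, 53.2 and 54.5 CPM in Cont, with a log2 fold change of 0.59 ± 0.11 (SE) and an edgeR adjusted p of 0.000247. The aKO libraries lay above all Cont libraries in both depots. Pnpla2, the lipase of the first step, stood at 252, 292 and 328 CPM in eWAT aKO against 136, 194 and 162 CPM in eWAT Cont, with a log2 fold change of 0.83 ± 0.23 (SE) and an edgeR adjusted p of 0.017. In iWAT its libraries did not overlap either, at 245, 204 and 322 CPM in aKO against 139, 198 and 164 CPM in Cont, but the change did not pass the test (edgeR adjusted p = 0.0704). Abhd5, the coactivator of ATGL also called CGI-58, rose in eWAT by 0.30 ± 0.10 on the log2 scale (edgeR adjusted p = 0.036). G0s2, an inhibitor of ATGL, Lipe, hormone-sensitive lipase, and Aqp7, the glycerol channel, did not pass in either depot, with log2 fold changes from 0.23 to 0.44.

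On the droplet surface, Bscl2, which encodes the droplet assembly protein seipin, and Plin3 rose in eWAT, by 0.40 ± 0.12 (edgeR adjusted p = 0.0219) and 0.27 ± 0.086 (edgeR adjusted p = 0.0252). Plin1 and Cidec, coat and fusion proteins of fat cell droplets, gave log2 fold changes of 0.32 to 0.68 that did not pass in either depot. In the cAMP branch, Prkar2b, the regulatory RIIβ subunit of protein kinase A, stood at 62.6, 43.5 and 69.2 CPM in iWAT aKO against 38.4, 48.7 and 39.3 CPM in iWAT Cont, with a log2 fold change of 0.61 ± 0.16 (SE) and an edgeR adjusted p of 0.0114. In eWAT cells its level was 51.6, 58.3 and 63.4 CPM in aKO against 34.8, 46.5 and 36.8 CPM in Cont, with a log2 fold change of 0.55 ± 0.15 (SE) and an edgeR adjusted p of 0.00848. The groups overlapped in iWAT only through the shallow aKO library, and did not overlap in eWAT. Gnas (-0.044 in iWAT and 0.056 in eWAT on the log2 scale), Gnai1 and Pde3b did not pass the test in either depot.

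Among the other fat cell genes, Aoc3, a surface amine oxidase, stood at 386, 303 and 384 CPM in iWAT aKO against 285, 272 and 261 CPM in iWAT Cont, with a log2 fold change of 0.43 ± 0.095 (SE) and an edgeR adjusted p of 0.00205. In eWAT it stood at 375, 360.4 and 390.0 CPM in aKO against 277, 281 and 275 CPM in Cont, with a log2 fold change of 0.43 ± 0.091 (SE) and an edgeR adjusted p of 0.000895. The genotypes did not overlap in either depot. Ebf1, a transcription factor of fat cells and their progenitors, rose by 0.29 ± 0.076 in iWAT (edgeR adjusted p = 0.0076) and 0.35 ± 0.071 in eWAT (edgeR adjusted p = 0.000547). Car3, carbonic anhydrase 3, stood at 266, 333 and 391 CPM in eWAT aKO against 117, 170.3 and 102 CPM in eWAT Cont, with a log2 fold change of 1.35 ± 0.40 (SE) and an edgeR adjusted p of 0.0222. Cyp2e1, a cytochrome P450, rose in iWAT, at 6.02, 1.98 and 8.75 CPM in aKO against 2.22, 4.65 and 2.65 CPM in Cont, with a log2 fold change of 1.20 ± 0.38 (SE) and an edgeR adjusted p of 0.0364. The lowest of these aKO values is the library with 1 count.

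The counts of genes that rose depended on single libraries and on the fit. With the 2 groups of the contrast fitted alone, Acvr1c, Mgll, Cyp2e1, Adora1, Aoc3 and Ebf1 did not pass in iWAT, which left 2 of the 8 calls (edgeR adjusted p 0.0564 to 0.331 for the 6). DESeq2 did not call Adora1, Plin3 and Abhd5 in eWAT (adjusted p 0.0501 to 0.123) or Cyp2e1 in iWAT (0.104). Without eWAT Cont siNS replicate 1 or without eWAT aKO siNS replicate 3, 7 of the 11 eWAT calls did not pass, which are Prkar2b, Adora1, Pnpla2, Car3, Plin3, Abhd5 and Bscl2, with edgeR adjusted p from 0.0518 to 0.195 and from 0.0519 to 0.15. Leaving out eWAT Cont siNS replicate 3 or eWAT aKO siNS replicate 2 ended 4 calls (edgeR adjusted p 0.0506 to 0.0903) and 2 calls (0.0508 to 0.0975), and Plin3 alone was lost without eWAT Cont siNS replicate 2 (0.0562) or eWAT aKO siNS replicate 1 (0.0546). In iWAT, leaving out Cont siNS replicate 1 ended 5 of 8 calls (edgeR adjusted p 0.0643 to 0.165), Cont siNS replicate 3 ended 2 (0.0982 to 0.102), aKO siNS replicate 1 ended 1 (0.0574, Ebf1) and aKO siNS replicate 3 ended 6 (0.0642 to 0.3). Without the shallow iWAT aKO siNS replicate 2, the same 8 genes were called in iWAT, and Plin3, Car3 and Abhd5 were added as higher. That fit also tested Gpihbp1 and called it lower (log2 fold change -5.31, edgeR adjusted p 0.0136). Aoc3, Ebf1, Mgll and Npr3 in eWAT, and Npr3 in iWAT, passed in all settings tried.

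Markers of other cells differed between the genotypes beside these genes. The 13 adipocyte markers in the table summed to 994, 696 and 1252 CPM in iWAT aKO siNS against 587, 822 and 704 CPM in iWAT Cont siNS, and to 957, 1112 and 1277 CPM in eWAT aKO siNS against 591, 804 and 677 CPM in eWAT Cont siNS. Of these 13, 3 rose and none fell in iWAT, and 6 rose and 1 fell in eWAT. The 20 leukocyte markers summed to 1904, 1912 and 1814 CPM in eWAT aKO siNS against 3232, 3058 and 2308 CPM in eWAT Cont siNS, with 10 of 17 tested falling and 1 rising, and the T cell marker Cd3e at 0 counts in all libraries. The 10 mesothelial markers summed to 6.93, 6.09 and 7.84 CPM in eWAT aKO siNS against 26.1, 25.98 and 26.4 CPM in eWAT Cont siNS. The part of these cell types in the results was not tested.

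**Figure D2:**
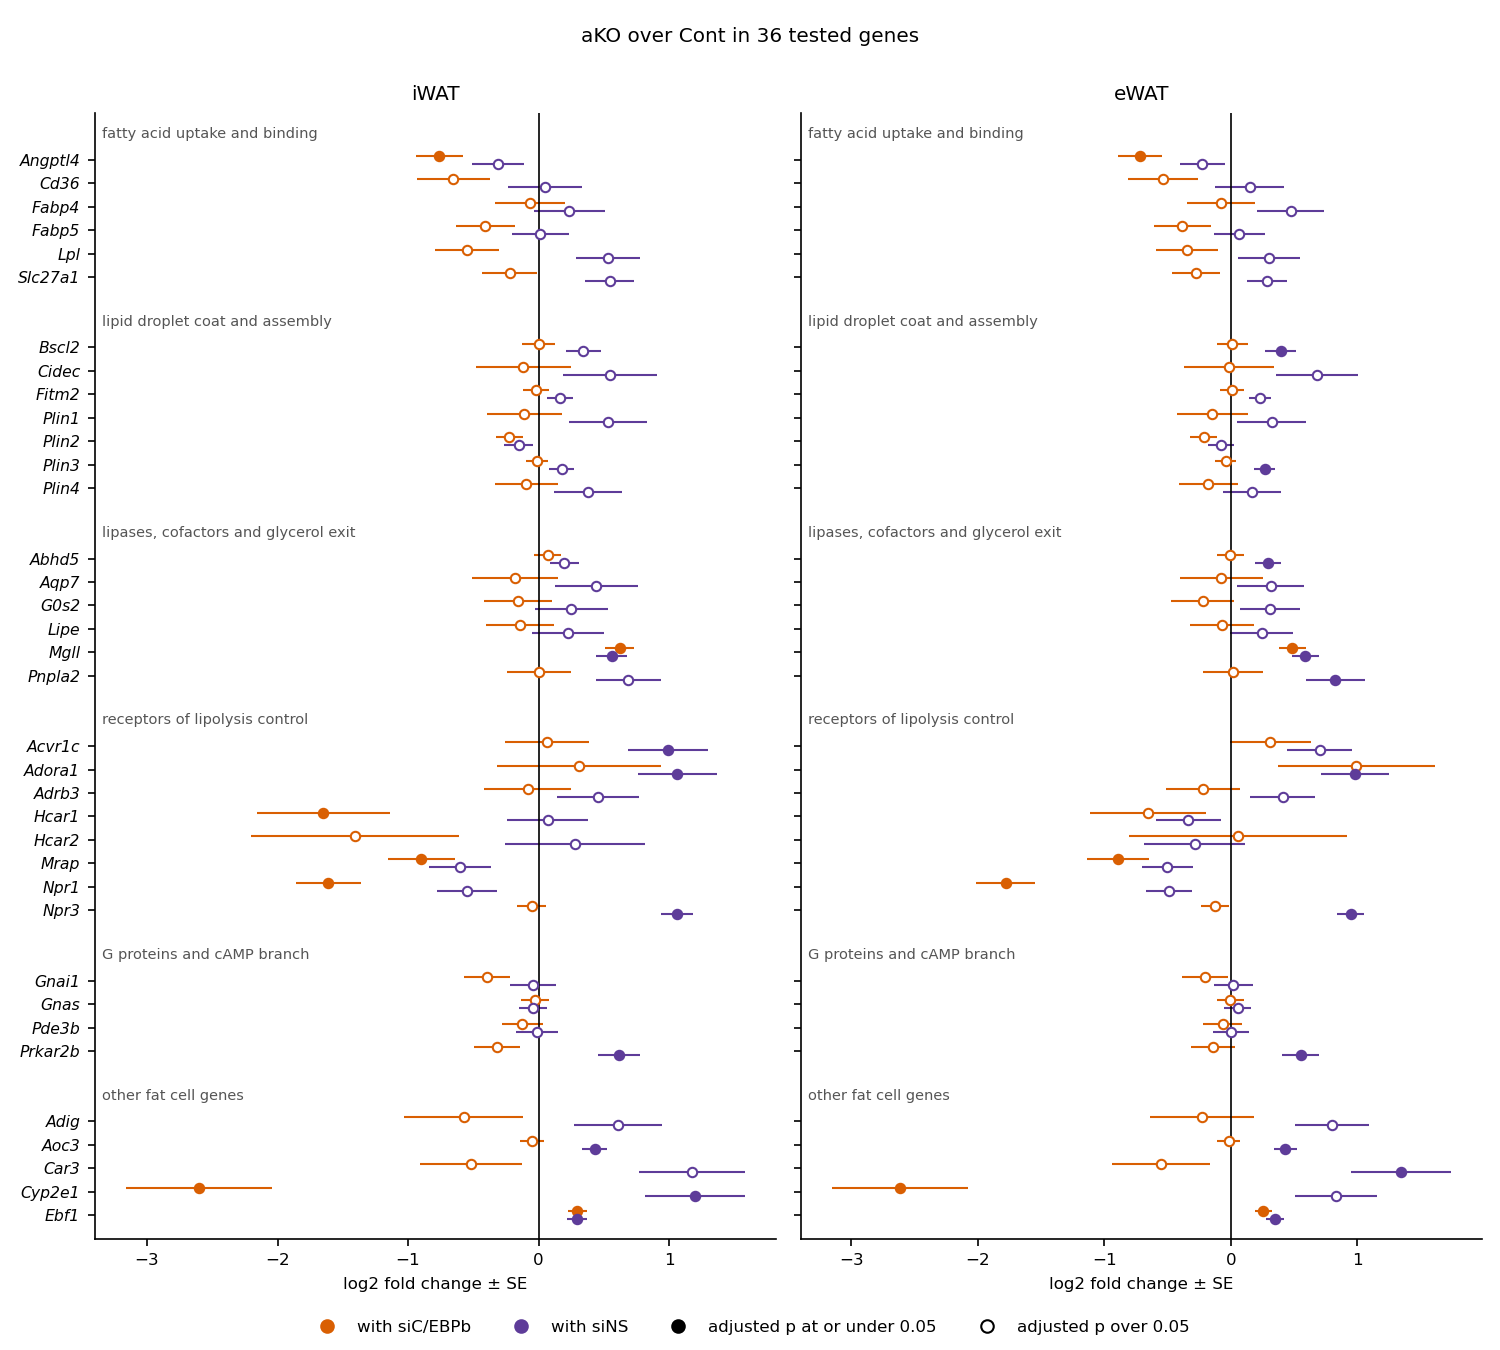
Log2 fold change of aKO over Cont with its standard error (horizontal axes) for the 36 tested genes by role, in iWAT and eWAT, with siC/EBPb in orange and siNS in purple; filled points have an edgeR adjusted p at or under 0.05. With siNS most points lie to the right of 0, and with siC/EBPb Cyp2e1 lies farthest to the left, at -2.60 in iWAT and -2.62 in eWAT.

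Gpihbp1, which encodes the protein that anchors lipoprotein lipase to capillary endothelium, missed the count filter of the main fit but split by genotype. It had 0 counts in 11 of 12 aKO libraries and 1 count in the other, against 2 to 12 counts in each of the 12 Cont libraries. With no filter it passed as lower in aKO with siNS, in iWAT (-5.22, edgeR adjusted p 0.016) and eWAT (-4.98, 0.00207). It also passed with siC/EBPb, in iWAT (-5.68, edgeR adjusted p 0.000203) and eWAT (-4.25, 5.26e-05). In filtered fits, the iWAT siNS difference did not pass without aKO siNS replicate 1 (edgeR adjusted p 0.0781) or 3 (0.103). The summed level of 12 endothelial markers was 43.7, 65.3 and 41.8 CPM in iWAT aKO siNS against 55.5, 61.6 and 55.6 CPM in iWAT Cont siNS, and 46.7, 44.8 and 40.4 CPM in eWAT aKO siNS against 58.6, 60.8 and 60.6 CPM in eWAT Cont siNS. Plin5, the perilipin of oxidative tissues, had 0 to 7 counts in aKO libraries and 3 to 11 in Cont libraries.

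The second comparison asked what siC/EBPb did within each genotype, relative to siNS. In Cont cells, 15 of the 36 tested genes fell and 1 rose in iWAT, and 15 fell and 2 rose in eWAT. Over all tested genes 14% fell and 10.3% rose in iWAT, and 14.9% fell and 11.8% rose in eWAT. In aKO cells, 27 fell in iWAT and 29 in eWAT, and none rose in either, beside 17.7% and 19.1% of all genes that fell and 13.6% and 16.6% that rose. The median log2 fold change of the tested genes was -0.51 in iWAT Cont, -0.61 in eWAT Cont, -1.01 in iWAT aKO and -1.10 in eWAT aKO. Over all tested genes it lay between -0.0062 and 0.0228. The genes that fell in all 4 of these comparisons, 14 in number, were Gnai1, Pde3b, Prkar2b, Fabp5, Lpl, Slc27a1, Abhd5, Pnpla2, Fitm2, Adig, Aoc3, Adora1, Hcar1 and Mrap. Those that passed as lower in none, 7 in number, were Gnas, Angptl4, Lipe, Mgll, Plin4, Car3 and Ebf1. These joint counts were not made over all tested genes, and the shares of the single comparisons do not give them.

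Uptake genes stood among the most abundant that fell. Lpl was at 349, 611 and 583 CPM in iWAT aKO siC/EBPb against 1715, 2982 and 1859 CPM with siNS, and at 778, 645 and 832 CPM in iWAT Cont siC/EBPb against 1313, 1714 and 1467 CPM with siNS. In eWAT it was at 224, 446 and 397 CPM in aKO siC/EBPb against 1346, 1202 and 1207 CPM with siNS, and at 472, 365 and 516 CPM in Cont siC/EBPb against 949, 1156 and 937 CPM with siNS. All siC/EBPb libraries lay below all siNS libraries of their depot. Its log2 fold changes were -2.07 ± 0.25 in iWAT aKO, -1.82 ± 0.25 in eWAT aKO, -0.995 ± 0.25 in iWAT Cont and -1.17 ± 0.25 in eWAT Cont, with edgeR adjusted p of at most 0.00495. Slc27a1, the fatty acid transporter FATP1, fell, with a log2 fold change of -2.04 ± 0.20 and -1.74 ± 0.18 in iWAT and eWAT aKO cells, and of -1.28 ± 0.19 and -1.18 ± 0.17 in Cont cells. Fabp5 followed, with -1.47 ± 0.22 in eWAT aKO and -1.02 ± 0.21 in eWAT Cont. Fabp4 and Cd36, a fatty acid translocase, fell in aKO cells. Fabp4 stood at 179, 303 and 357 CPM in eWAT aKO siC/EBPb against 543, 662 and 721 CPM with siNS, with a log2 fold change of -1.20 ± 0.27 (SE) and an edgeR adjusted p of 0.00181. In eWAT Cont cells its value was -0.65 ± 0.27 (edgeR adjusted p = 0.0866), again with no overlap between libraries. Cd36 gave -1.43 ± 0.28 in eWAT aKO (edgeR adjusted p = 0.000553) and -0.74 ± 0.27 in eWAT Cont cells (edgeR adjusted p = 0.0545).

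Among the droplet genes, Fitm2, which encodes a protein of droplet formation in the endoplasmic reticulum, fell in all 4 comparisons, by 0.56 to 0.79 on the log2 scale. Bscl2 fell in 3, with -0.32 ± 0.12 in eWAT Cont missing the threshold (edgeR adjusted p = 0.0552). Plin1 stood at 47.8, 106 and 101 CPM in iWAT aKO siC/EBPb against 148, 192 and 188 CPM with siNS, with a log2 fold change of -1.02 ± 0.30 (SE) and an edgeR adjusted p of 0.0149. In eWAT aKO it stood at 53.3, 117 and 107 CPM with siC/EBPb against 151, 170.2 and 183 CPM with siNS, with a log2 fold change of -0.86 ± 0.28 (SE) and an edgeR adjusted p of 0.0213. In Cont cells its values of -0.38 in iWAT and -0.40 in eWAT did not pass. Cidec fell in aKO cells, with a log2 fold change of -1.23 ± 0.37 in iWAT and -1.26 ± 0.34 in eWAT, and did not pass in Cont cells. Plin4 did not pass in any comparison, and Plin2 passed in eWAT aKO cells, at -0.27 ± 0.11 (edgeR adjusted p = 0.0441).

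The lipases differed among themselves. Pnpla2 stood at 59.6, 102 and 99.9 CPM in iWAT aKO siC/EBPb against 245, 204 and 322 CPM with siNS, with a log2 fold change of -1.63 ± 0.25 (SE) and an edgeR adjusted p of 5.58e-05. In iWAT Cont cells it stood at 87.7, 74.4 and 98.1 CPM with siC/EBPb against 139, 198 and 164 CPM with siNS, with a log2 fold change of -0.95 ± 0.24 (SE) and an edgeR adjusted p of 0.00733. In eWAT its log2 fold changes were -1.65 ± 0.24 in aKO and -0.84 ± 0.24 in Cont cells. Its coactivator gene Abhd5 fell by 0.37 to 0.67. Lipe, the next lipase of the chain, gave -0.17 to -0.67 and passed in none of the 4 comparisons, with libraries that overlapped in 3 of them. Mgll gave -0.035 to 0.084 and passed in none. Aqp7 fell in aKO cells, with a log2 fold change of -0.95 ± 0.32 in iWAT and -1.06 ± 0.29 in eWAT, and G0s2 passed in eWAT aKO cells, at -0.64 ± 0.24 (edgeR adjusted p = 0.0477).

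All 8 tested receptors fell in aKO cells of both depots. Adora1 stood at 0.230, 1.13 and 1.77 CPM in iWAT aKO siC/EBPb against 8.60, 29.7 and 15.97 CPM with siNS, and at 0.951, 0.669 and 0.883 CPM in iWAT Cont siC/EBPb against 4.03, 8.32 and 6.86 CPM with siNS. The eWAT values were 0.917, 1.26 and 1.18 CPM in aKO siC/EBPb against 9.93, 10.6 and 11.9 CPM with siNS, and 0.397, 0.794 and 0.466 CPM in Cont siC/EBPb against 4.04, 6.65 and 5.77 CPM with siNS. The log2 fold changes were -3.67 ± 0.39, -3.28 ± 0.36, -2.91 ± 0.45 and -3.29 ± 0.45 in that order of depots within aKO and then Cont, and no libraries overlapped. Hcar1, the lactate receptor, fell, with a log2 fold change of -3.02 ± 0.44 in iWAT aKO, -2.21 ± 0.37 in eWAT aKO, -1.30 ± 0.34 in iWAT Cont and -1.89 ± 0.32 in eWAT Cont cells, with siNS group means of 1.64 to 2.07 CPM. Mrap fell by 0.92 to 1.31 in the 4 comparisons. Adrb3 stood at 9.11, 20.02 and 16.9 CPM in eWAT aKO siC/EBPb against 32.95, 38.6 and 38.7 CPM with siNS, with a log2 fold change of -1.27 ± 0.28 (SE) and an edgeR adjusted p of 0.00128. In eWAT Cont cells it stood at 17.8, 13.9 and 21.4 CPM with siC/EBPb against 21.6, 32.02 and 29.6 CPM with siNS and did not pass (edgeR adjusted p = 0.0958), although the libraries did not overlap. Hcar2 was under 1 CPM in every deep library and fell in both aKO comparisons and in eWAT Cont cells.

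Of the cAMP branch, Prkar2b fell, with a log2 fold change of -1.81 ± 0.17 in iWAT aKO, -1.67 ± 0.16 in eWAT aKO, -0.88 ± 0.16 in iWAT Cont and -0.98 ± 0.16 in eWAT Cont cells, with edgeR adjusted p of at most 0.000338. Pde3b, the phosphodiesterase that insulin activates in fat cells, fell by 0.61 to 0.72, and Gnai1, a Gi α subunit, by 0.54 to 1.07. Gnas gave -0.0003 to 0.062 and did not pass. In the last role, Aoc3 stood at 139.8, 171 and 176 CPM in iWAT aKO siC/EBPb against 386, 303 and 384 CPM with siNS, with a log2 fold change of -1.18 ± 0.10 (SE) and an edgeR adjusted p of 2.21e-10. Adig, adipogenin, fell, with a log2 fold change of -2.36 ± 0.39 in iWAT aKO and -2.08 ± 0.34 in eWAT aKO cells, and of -1.18 ± 0.38 and -1.05 ± 0.35 in Cont cells. The only calls upward were in Cont cells, where Npr3 rose by 0.40 ± 0.12 in iWAT and 0.40 ± 0.11 in eWAT, and Car3 rose in eWAT by 1.11 ± 0.39 (edgeR adjusted p = 0.0468).

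Some of these calls depended on single libraries. In eWAT Cont, Car3 was lost without any library of the contrast except siNS replicate 2, with edgeR adjusted p from 0.0701 to 0.152. Abhd5, Npr3, Pnpla2 and Adig were lost without siNS replicate 2 (edgeR adjusted p 0.0531 to 0.225), Pnpla2 and Adig also without siC/EBPb replicate 2 (0.062 and 0.135), and Adig without siC/EBPb replicate 1 (0.069). In iWAT Cont, Npr3 was lost without siNS replicate 1 (edgeR adjusted p 0.167), siNS replicate 2 (0.0682) or siC/EBPb replicate 2 (0.114). Gnai1, Adig, Abhd5 and Hcar1 were each lost without at least 1 library of that contrast: siNS replicate 2 (edgeR adjusted p 0.0511 to 0.127), siNS replicate 3 (0.0644 to 0.0666), siC/EBPb replicate 1 (0.0515 to 0.0901) or siC/EBPb replicate 2 (0.0917 to 0.132). In eWAT aKO, siC/EBPb replicate 1, the lowest library, ended the calls of Plin3, Plin1, G0s2 and Plin2 when left out (edgeR adjusted p 0.0926 to 0.232). Plin1, G0s2 and Plin2 were lost without siNS replicate 3 (edgeR adjusted p 0.065 to 0.172), G0s2 and Plin2 without siNS replicate 2 (0.0883 and 0.101), and G0s2 without siC/EBPb replicate 3 (0.0627). In iWAT aKO, siNS replicate 3 ended 6 of 27 calls (Fabp4, Acvr1c, Plin1, Cidec, Aqp7 and Plin3, edgeR adjusted p 0.0617 to 0.297), and siC/EBPb replicate 1 ended those of Plin1, Plin3, Cidec and Aqp7 (0.0591 to 0.143). Plin3 was also lost without siNS replicate 1 (edgeR adjusted p 0.193) or siC/EBPb replicate 3 (0.175), and Aqp7 without siC/EBPb replicate 2 (0.081). With the groups of the contrast fitted alone, Fabp4, Cd36, Aqp7, Abhd5 and Plin3 did not pass in iWAT aKO (edgeR adjusted p 0.0561 to 0.482), nor Cidec, Plin1 and G0s2 in eWAT aKO (0.0705 to 0.159). Without replicate 1 of aKO siC/EBPb in both depots, 25 members fell in iWAT and 26 in eWAT. Without the shallow iWAT aKO siNS replicate 2, 28 fell in iWAT aKO cells.

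**Figure D3:**
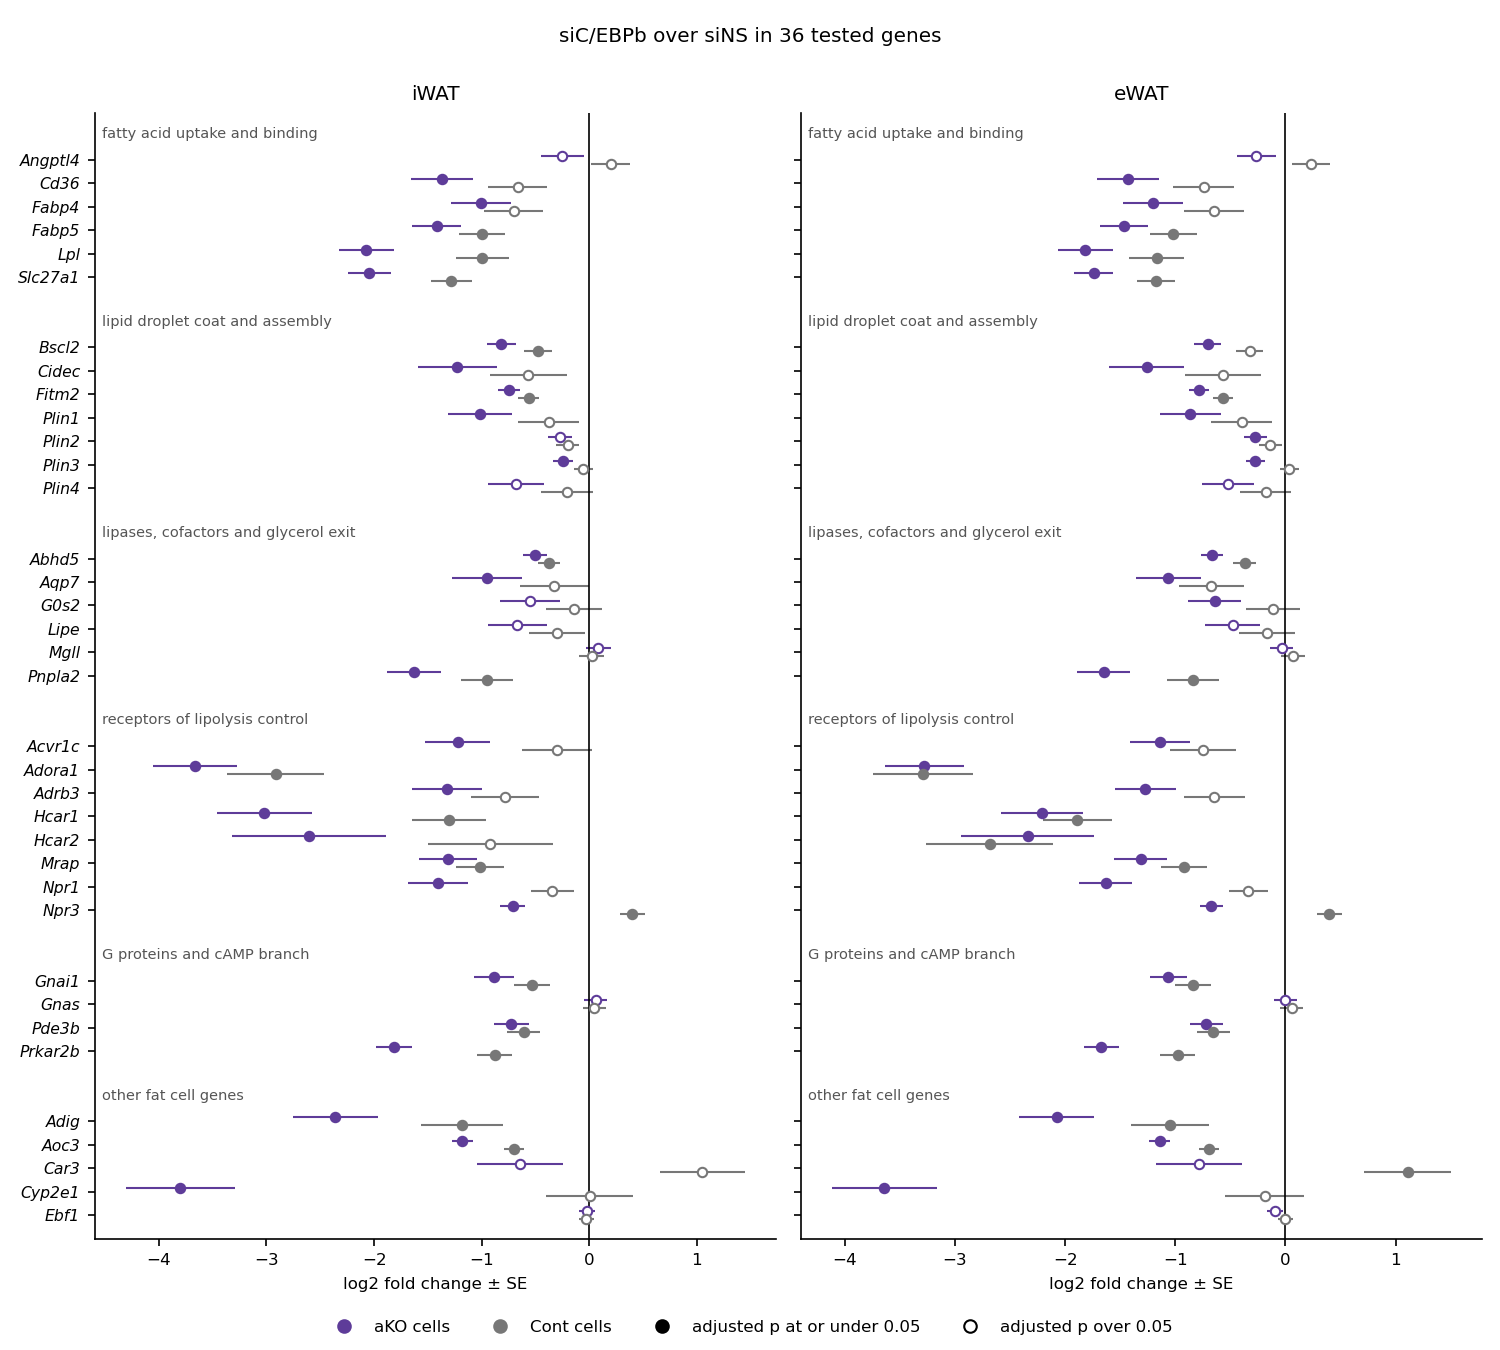
Log2 fold change of siC/EBPb over siNS with its standard error (horizontal axes) for the 36 tested genes by role, in iWAT and eWAT, with aKO cells in purple and Cont cells in grey; filled points have an edgeR adjusted p at or under 0.05. In iWAT, Adora1 lies at -3.67 in aKO cells and -2.91 in Cont cells, and Cyp2e1 at -3.80 in aKO cells, with its Cont point open and close to 0.

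Cell type markers moved with siC/EBPb as well. The adipocyte markers summed to 261, 488 and 461 CPM in eWAT aKO siC/EBPb against 957, 1112 and 1277 CPM with siNS, and to 408, 328 and 454 CPM in eWAT Cont siC/EBPb against 591, 804 and 677 CPM with siNS. The leukocyte markers summed to 115, 192 and 245 CPM in eWAT aKO siC/EBPb against 1904, 1912 and 1814 CPM with siNS, and to 573, 483 and 562 CPM in eWAT Cont siC/EBPb against 3232, 3058 and 2308 CPM with siNS. Of the 17 leukocyte markers tested, 16 or 17 fell in each of the 4 comparisons and none rose. Macrophages are known to express Lpl, Cd36 and Plin2 as well as fat cells. The 12 smooth muscle and pericyte markers moved the other way, at 4648, 3442 and 3902 CPM in eWAT aKO siC/EBPb against 1396, 1381 and 1422 CPM with siNS. The part of these cells in the changes was not tested.

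**Figure D4:**
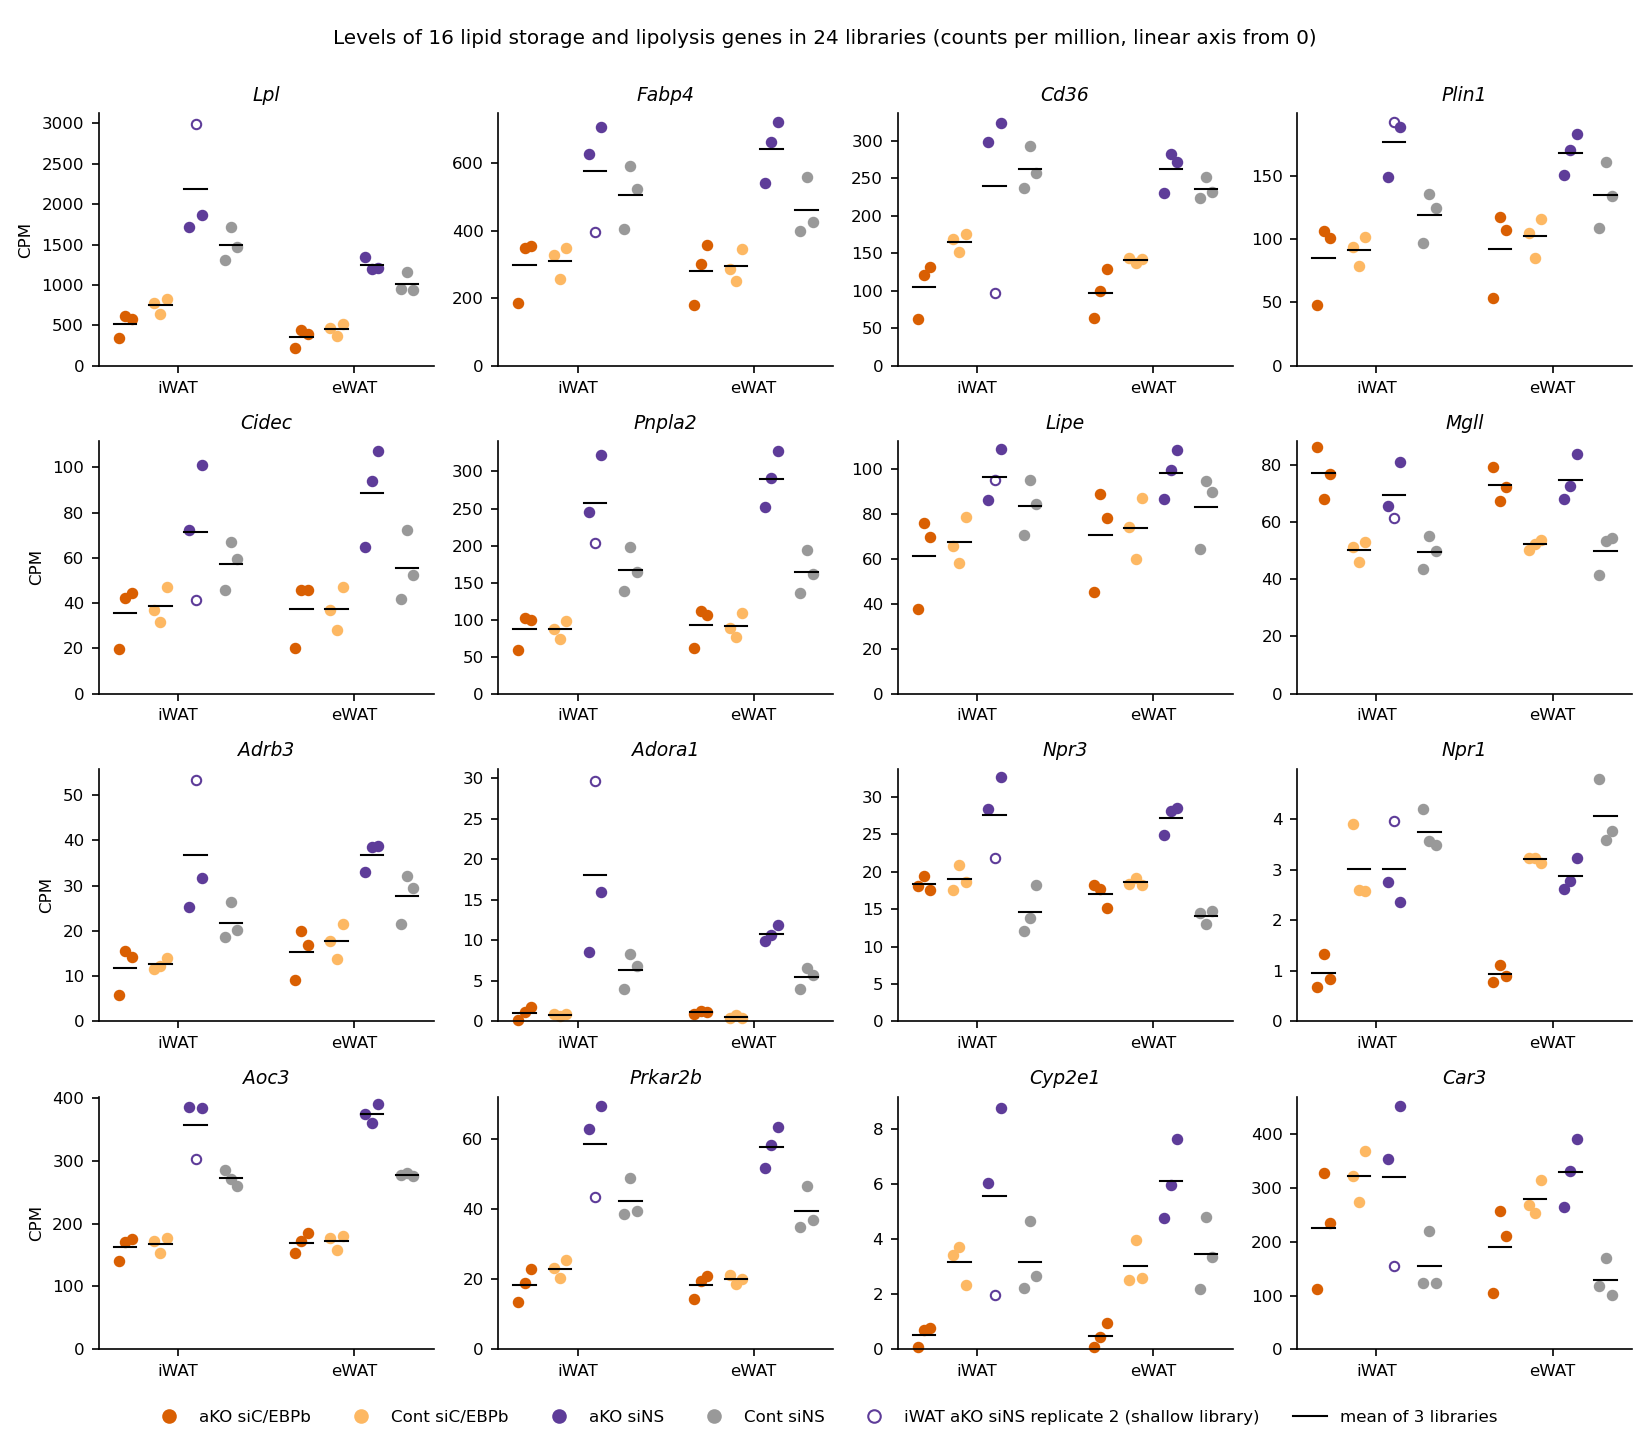
CPM (vertical axes, linear from 0) of 16 of the 39 genes in each of 24 libraries, grouped by depot and by genotype and siRNA; horizontal lines are means of 3 libraries and the open circle is iWAT aKO siNS replicate 2. In the panels of Pnpla2, Aoc3 and Prkar2b the siC/EBPb groups of both genotypes lie together below Cont siNS, and in those of Npr1 and Cyp2e1 only aKO siC/EBPb is low.

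Because many members fell together with siRNA against a transcription factor, their RefSeq promoters were searched for the core of the C/EBP motif, TTGCNNAA, on both strands of the 250 bases before each start site. The promoter table held 28 of the 39 genes, with 44 start sites. The core was found before 2 of these 44 (4.55%), compared with 9.56% of 32851 promoters of mouse genes in the table. It matched in Plin1 and Cidec. Both fell with siC/EBPb in aKO cells, and neither passed in Cont cells. Of the 36 tested members, 27 fell in aKO cells of both depots, a joint count that was not made over all tested genes. The strict form of the repeat bound by PPAR and RXR was found before none of the 44, against 0.338% of all promoters, and the core of the EBF motif, CCCNNGGG, before 13 (29.5%), against 11.8% of all promoters. A match is a stretch of letters and not a bound site, and its absence from this window says nothing of the factor. The Plin1 stretch, chr7:79732777-79733026 of GRCm38.p6 on the minus strand, and the Cidec stretch, chr6:113434765-113435014 on the minus strand before a start 996 bases inside the GENCODE gene, are shown as the carriers of the core. The matches in Plin1 begin 187 and 58 bases before the start, and that in Cidec 198 bases before it. The stretches before Adora1 (chr1:134235458-134235707, minus strand), Cyp2e1 (chr7:140763569-140763818, plus strand) and Npr3 (chr15:11907372-11907621, minus strand) are shown because results above and below turn on these genes. Capitals mark the C/EBP core, and the last 3 hold none.
Plin1: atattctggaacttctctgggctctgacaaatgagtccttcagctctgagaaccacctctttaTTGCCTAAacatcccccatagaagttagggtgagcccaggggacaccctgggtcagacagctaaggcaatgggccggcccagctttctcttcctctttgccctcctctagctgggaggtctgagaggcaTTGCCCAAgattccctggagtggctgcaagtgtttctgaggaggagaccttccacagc
Cidec: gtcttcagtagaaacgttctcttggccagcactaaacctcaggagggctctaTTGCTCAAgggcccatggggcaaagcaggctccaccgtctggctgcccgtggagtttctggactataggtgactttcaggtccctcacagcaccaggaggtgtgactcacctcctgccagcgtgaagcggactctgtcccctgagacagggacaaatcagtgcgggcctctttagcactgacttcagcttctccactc
Adora1: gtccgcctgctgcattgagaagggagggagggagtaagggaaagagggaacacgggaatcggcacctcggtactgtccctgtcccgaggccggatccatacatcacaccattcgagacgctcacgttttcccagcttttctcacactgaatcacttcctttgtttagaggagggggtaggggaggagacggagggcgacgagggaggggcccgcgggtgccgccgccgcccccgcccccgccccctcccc
Cyp2e1: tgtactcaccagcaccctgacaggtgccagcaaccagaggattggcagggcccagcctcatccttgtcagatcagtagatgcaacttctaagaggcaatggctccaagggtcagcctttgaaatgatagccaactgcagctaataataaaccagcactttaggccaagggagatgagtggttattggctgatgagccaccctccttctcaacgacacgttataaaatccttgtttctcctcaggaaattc
Npr3: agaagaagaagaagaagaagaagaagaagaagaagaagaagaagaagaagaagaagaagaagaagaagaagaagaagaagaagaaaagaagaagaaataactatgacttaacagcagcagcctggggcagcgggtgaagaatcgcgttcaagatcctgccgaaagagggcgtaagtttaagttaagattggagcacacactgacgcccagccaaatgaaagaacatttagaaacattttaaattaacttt

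The third comparison asked how aKO differed from Cont cells when both received siC/EBPb. Of the 36 tested genes, 2 rose and 5 fell in iWAT, against 3.52% and 6.51% of all genes, and 2 rose and 4 fell in eWAT, against 3.9% and 6.87%. The genes that rose were Mgll and Ebf1 in both depots. Mgll stood at 86.03, 67.9 and 76.9 CPM in iWAT aKO siC/EBPb against 51.2, 46.1 and 52.9 CPM in iWAT Cont siC/EBPb, with a log2 fold change of 0.62 ± 0.11 (SE) and an edgeR adjusted p of 0.000337. In eWAT cells its level was 79.2, 67.5 and 72.4 CPM in aKO against 50.2, 52.4 and 53.8 CPM in Cont, with a log2 fold change of 0.49 ± 0.11 (SE) and an edgeR adjusted p of 0.00289. The genotypes did not overlap in either depot. Ebf1 rose by 0.30 ± 0.071 in iWAT (edgeR adjusted p = 0.00547) and 0.26 ± 0.071 in eWAT (edgeR adjusted p = 0.0146).

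Cyp2e1 fell, at 0.0765, 0.705 and 0.758 CPM in iWAT aKO siC/EBPb against 3.42, 3.71 and 2.33 CPM in iWAT Cont siC/EBPb, with a log2 fold change of -2.60 ± 0.56 (SE) and an edgeR adjusted p of 0.00335. In eWAT it stood at 0.0655, 0.443 and 0.968 CPM in aKO against 2.51, 3.97 and 2.60 CPM in Cont, with a log2 fold change of -2.62 ± 0.54 (SE) and an edgeR adjusted p of 0.00215. Npr1 fell too, at 0.689, 1.34 and 0.842 CPM in iWAT aKO against 3.90, 2.60 and 2.57 CPM in iWAT Cont, with a log2 fold change of -1.61 ± 0.25 (SE) and an edgeR adjusted p of 5.14e-05. The eWAT values were 0.786, 1.11 and 0.899 CPM in aKO against 3.24, 3.24 and 3.13 CPM in Cont, with a log2 fold change of -1.78 ± 0.23 (SE) and an edgeR adjusted p of 4.91e-06. For both genes each aKO library lay under each Cont library. The Cyp2e1 levels in aKO cells are near the floor, so the size of its fold changes is uncertain. Angptl4, an inhibitor of lipoprotein lipase, fell, with a log2 fold change of -0.76 ± 0.18 in iWAT (edgeR adjusted p = 0.00914) and -0.72 ± 0.18 in eWAT (edgeR adjusted p = 0.0101). Mrap fell, with a log2 fold change of -0.90 ± 0.26 in iWAT (edgeR adjusted p = 0.0295) and -0.89 ± 0.25 in eWAT (edgeR adjusted p = 0.0212), and Hcar1 fell, with -1.65 ± 0.51 in iWAT (edgeR adjusted p = 0.0351). Npr3, Pnpla2, Aoc3 and Prkar2b gave values between -0.32 and 0.02 here and did not pass.

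Mgll, Cyp2e1 and Npr1 passed in all settings tried in both depots. In iWAT, Mrap and Hcar1 were lost without Cont siC/EBPb replicate 1 (edgeR adjusted p 0.0764 and 0.0826) or replicate 3 (0.181 and 0.142), and with Ebf1 without aKO siC/EBPb replicate 1 (0.0537 to 0.164). Hcar1 was also lost without aKO siC/EBPb replicate 2 (edgeR adjusted p 0.0644) or replicate 3 (0.072). In eWAT, Angptl4, Ebf1 and Mrap were lost without Cont siC/EBPb replicate 3 (edgeR adjusted p 0.053 to 0.111) or aKO siC/EBPb replicate 1 (0.0547 to 0.128). Mrap and Ebf1 were lost without Cont siC/EBPb replicate 1 (edgeR adjusted p 0.0675 and 0.0813), and Mrap without aKO siC/EBPb replicate 2 (0.0616). With the groups of the contrast fitted alone, Mrap and Angptl4 did not pass in iWAT (edgeR adjusted p 0.0888 to 0.112), nor Angptl4 in eWAT (0.0605). Gpihbp1 had 0 counts in 5 and 1 count in 1 of the 6 aKO siC/EBPb libraries.

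Markers of other cells differed between the genotypes here too. The leukocyte markers summed to 165 ± 59.9 CPM in iWAT aKO siC/EBPb against 489 ± 23.7 CPM in iWAT Cont siC/EBPb (mean ± SD, n = 3 each), and to 115, 192 and 245 CPM in eWAT aKO against 573, 483 and 562 CPM in eWAT Cont. Of the 17 tested, 15 fell in iWAT and 16 in eWAT, and none rose. The mesothelial markers summed to 7.35, 7.54 and 7.41 CPM in iWAT aKO siC/EBPb against 29.2, 32.3 and 25.5 CPM in iWAT Cont siC/EBPb, and to 6.81, 7.90 and 6.99 CPM in eWAT aKO against 28.96, 30.2 and 27.98 CPM in eWAT Cont, with 5 of 6 tested falling in each depot. Of the 13 adipocyte markers tested, 1 rose in iWAT and none in eWAT, and none fell. The part of these cell types in the calls of this comparison was not tested. The mean Cebpb level left by siC/EBPb was also lower in aKO than in Cont cells of each depot. Its part was not tested either.

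Whether the effect of siC/EBPb differed between the genotypes was tested by the interaction, the log2 fold change in aKO cells minus that in Cont cells. It passed for 4 of the 36 tested genes in each depot, all negative, beside 2.19% negative and 1.32% positive calls over all genes in iWAT and 3.33% and 3.01% in eWAT. Cyp2e1, Npr3 and Aoc3 passed in both depots, Prkar2b in iWAT and Npr1 in eWAT. The value for Cyp2e1 was -3.80 ± 0.68 in iWAT (edgeR adjusted p = 0.00214) and -3.45 ± 0.63 in eWAT (edgeR adjusted p = 0.00193). It fell to 0.0655, 0.443 and 0.968 CPM with siC/EBPb in eWAT aKO cells, against 4.77, 5.96 and 7.64 CPM with siNS, whereas eWAT Cont cells held 2.51, 3.97 and 2.60 CPM with siC/EBPb against 2.19, 4.82 and 3.35 CPM with siNS. The Cyp2e1 levels in aKO siC/EBPb cells are near the floor, so the size of its interaction is uncertain. The iWAT value also includes the shallow library. Npr3 gave -1.11 ± 0.17 in iWAT (edgeR adjusted p = 0.000182) and -1.07 ± 0.15 in eWAT (edgeR adjusted p = 8e-05). With siC/EBPb it fell to 18.2, 17.7 and 15.2 CPM in eWAT aKO cells against 24.9, 28.1 and 28.5 CPM with siNS, and rose to 18.3, 19.1 and 18.2 CPM in eWAT Cont cells against 14.5, 12.96 and 14.8 CPM with siNS. Npr1 gave -1.29 ± 0.30 in eWAT (edgeR adjusted p = 0.0094) and -1.06 ± 0.34 in iWAT (edgeR adjusted p = 0.084). As given above, siC/EBPb left a lower mean Cebpb level in aKO than in Cont cells of each depot. Whether the interaction values follow from that difference was not tested.

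Aoc3 gave -0.48 ± 0.13 in iWAT (edgeR adjusted p = 0.0419) and -0.45 ± 0.13 in eWAT (edgeR adjusted p = 0.0361), and Prkar2b -0.94 ± 0.24 in iWAT (edgeR adjusted p = 0.031). The Aoc3 call was lost without most single libraries of the contrast. In iWAT these were Cont siNS replicate 1 (edgeR adjusted p 0.061), 2 (0.0753) and 3 (0.104), Cont siC/EBPb replicate 1 (0.112) and 3 (0.13), aKO siNS replicate 1 (0.129) and 3 (0.125), and aKO siC/EBPb replicate 1 (0.173). In eWAT they were Cont siNS replicate 1 (edgeR adjusted p 0.0682), 2 (0.0608) and 3 (0.0764), Cont siC/EBPb replicate 1 (0.0936) and 3 (0.105), aKO siNS replicate 1 (0.0583) and 3 (0.0961), and aKO siC/EBPb replicate 1 (0.13). The Prkar2b call was lost without Cont siNS replicate 1 (edgeR adjusted p 0.0789) or 3 (0.0696), Cont siC/EBPb replicate 1 (0.0705) or 3 (0.0972), aKO siNS replicate 1 (0.0628) or 3 (0.119), and aKO siC/EBPb replicate 1 (0.0844). With the groups of the contrast fitted alone, neither Prkar2b nor Aoc3 passed in iWAT (edgeR adjusted p 0.0512 to 0.178). Cyp2e1 and Npr3 in both depots, and Npr1 in eWAT, passed in all settings tried. For the other tested genes, a larger fall in aKO than in Cont cells was not called: Plin1, for instance, gave -0.64 ± 0.41 in iWAT and -0.47 ± 0.39 in eWAT, with edgeR adjusted p of 0.484 and 0.554.

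With both interventions together, aKO siC/EBPb cells were set against Cont siNS cells. In iWAT 23 of the 36 tested genes fell and 3 rose, against 19.5% and 17.1% of all genes, and in eWAT 22 fell and 2 rose, against 20.3% and 19%. Hcar1 gave the most negative value in iWAT, -2.95 ± 0.43, and Cyp2e1 in eWAT, -2.81 ± 0.53. Npr1 stood at 0.689, 1.34 and 0.842 CPM in iWAT aKO siC/EBPb against 4.20, 3.56 and 3.49 CPM in iWAT Cont siNS, with a log2 fold change of -1.95 ± 0.24 (SE) and an edgeR adjusted p of 2.43e-07. Mrap stood at 5.66, 9.23 and 9.01 CPM in iWAT aKO siC/EBPb against 23.1, 36.7 and 30.9 CPM in iWAT Cont siNS, with a log2 fold change of -1.91 ± 0.24 (SE) and an edgeR adjusted p of 2.09e-06. Lpl gave -1.54 ± 0.25 in iWAT and -1.51 ± 0.25 in eWAT, with edgeR adjusted p of 5.06e-05 and 5.81e-05. Mgll and Ebf1 rose in both depots, by 0.64 ± 0.11 and 0.27 ± 0.071 in iWAT and 0.55 ± 0.11 and 0.26 ± 0.071 in eWAT, and Npr3 rose in iWAT. Ebf1 was lost without Cont siNS replicate 1 in iWAT (edgeR adjusted p 0.0715) and without Cont siNS replicate 2 in eWAT (0.0555), and Npr3 was lost without Cont siNS replicate 1 (0.243) or 2 (0.0964) or aKO siC/EBPb replicate 2 (0.102) of iWAT. With these, 7 of 26 calls in iWAT and 7 of 24 in eWAT were lost in at least 1 setting. The falls lost were those of Angptl4, Fabp4, Adrb3, Hcar2 and Abhd5 in iWAT. In eWAT they were those of Adig, Pnpla2, Adrb3, Fabp4, Angptl4 and Plin2. Plin1, Plin3, Plin4, Cidec, Lipe and G0s2 were among those that did not pass in either depot. These comparisons share libraries with those above.

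The depots were set side by side within Cont cells. By edgeR none of the 36 tested genes differed between iWAT and eWAT with siNS, where 1.2% of all genes did, or with siC/EBPb, where 3.35% did. At an unadjusted edgeR p under 0.05 there were 2 of the 36 with siNS and 3 with siC/EBPb, beside 2233 and 2852 of all 14785 genes. With siNS, DESeq2 called none and limma voom called 2, Gnas and Ebf1, and with siC/EBPb DESeq2 called 1 and limma voom 5. With siNS, Lpl stood at 1313, 1714 and 1467 CPM in iWAT against 949, 1156 and 937 CPM in eWAT, without overlap, with a log2 fold change of 0.56 ± 0.24 (SE) and an edgeR adjusted p of 0.274. Same-numbered libraries of both depots deviated together in Cont siNS cells, and with the replicate number as a block Lpl passed, at an edgeR adjusted p of 0.0362. With siC/EBPb it stood at 778, 645 and 832 CPM in iWAT against 472, 365 and 516 CPM in eWAT, with a log2 fold change of 0.74 ± 0.24 (SE) and an edgeR adjusted p of 0.102, and DESeq2 called it there at an adjusted p of 0.0312. Without the shallow iWAT aKO siNS replicate 2, 2 of the tested genes passed with siNS (Gnas at an edgeR adjusted p of 0.0194 and Ebf1 at 0.0258) and 3 with siC/EBPb (Gnas, Ebf1 and Gnai1, at 0.0171, 0.0322 and 0.0474). Without iWAT Cont siNS replicate 1, Ebf1 passed with siNS (edgeR adjusted p 0.0268). Whether the genotype effect with siNS, or the siRNA effect in Cont cells, differed between depots was tested as well. By edgeR no gene passed among the 14785 that met the count filter, and 18 and 6 passed with no filter, none of them a member. None of the 36 had an unadjusted p under 0.05, against 415 and 428 of the 14785 genes. These fits did not block the replicate numbers that the depots share, so the lack of calls does not show that the depots responded alike.

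Of 101 other genes of the same pathways, listed by name, 92 were tested. In aKO against Cont cells with siNS, 14 rose and 8 fell in iWAT, where 7.32% and 7.85% of all genes did, and 18 rose and 14 fell in eWAT, where 9.5% and 10.9% did. Ces2g, a carboxylesterase, averaged 26.8 CPM in iWAT aKO against 11.3 in iWAT Cont and 30.5 in eWAT aKO against 14.0 in eWAT Cont, with log2 fold changes of 1.26 ± 0.13 and 1.13 ± 0.11. Adra2a, the α2A-adrenergic receptor that couples to Gi and restrains lipolysis, averaged 4.38 CPM in iWAT aKO against 12.4 in iWAT Cont and 5.53 in eWAT aKO against 14.2 in eWAT Cont, with log2 fold changes of -1.41 ± 0.21 and -1.36 ± 0.17 and edgeR adjusted p of 2.62e-05 and 1.01e-06. Adcy7, an adenylyl cyclase, fell in both depots, and Lpin1, a phosphatidate phosphatase of triglyceride synthesis, rose in iWAT by 0.51 ± 0.084. With siC/EBPb against siNS, 28 fell and 11 rose in iWAT aKO, 27 fell and 11 rose in eWAT aKO, 24 fell and 7 rose in iWAT Cont, and 28 fell and 9 rose in eWAT Cont cells. The shares over all genes that fell and rose were 17.7% and 13.6% in iWAT aKO, 19.1% and 16.6% in eWAT aKO, 14% and 10.3% in iWAT Cont, and 14.9% and 11.8% in eWAT Cont cells. Prkar2a, the RIIα subunit of protein kinase A, rose while Prkar2b fell: it averaged 122 CPM in iWAT aKO siC/EBPb against 59.6 with siNS, and 103 CPM in iWAT Cont siC/EBPb against 72.1 with siNS. Apoe, an apolipoprotein that macrophages and fat cells both make, fell, with a log2 fold change of -2.18 ± 0.18 in iWAT aKO and -1.71 ± 0.18 in iWAT Cont cells.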

How the data were processed

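RNA libraries of 24 cultured samples were made with a directional kit, per the labels' protocols. The authors deposited a table of raw read counts per gene, whole numbers per Ensembl gene. Per the submitters' processing notes, CASAVA, cutadapt 2.7, TopHat2 2.1.1, HTSeq and edgeR were used with the GRCm38 build. From these counts, edgeR 4.0.16 (R 4.3.3) gave TMM factors (0.985 to 1.04, and 0.84 in the shallow library), CPM values and quasi-likelihood tests with 1 mean per group over all 24 libraries. The filter was filterByExpr at a minimum count of 10, which left 14785 genes, and p-values were adjusted by Benjamini-Hochberg over these for each of 16 contrasts, with a threshold of 0.05. The counter's own summary lines were left out of library sizes, and made up 27.5% to 39.5% of listed reads, or 95.9% in the shallow library. Gene names came from GENCODE M21, which named 53360 of the 53465 gene IDs. DESeq2 1.42.0, limma 3.58.1, other filters and left-out libraries were alternatives. All 39 members were reported. Other genes of the pathways were named by smallest p among those past the threshold, and Cebpb, Senp2, Adipoq, Pparg and Cebpa were named whatever their result. The members, marker lists and pathway lists were chosen with earlier results of these data known. Replicate numbers shared by both depots were checked over 8159 genes. Deviations of same-numbered Cont siNS libraries of the depots correlated at 0.27, 0.425 and 0.312. Such pairs were blocked only in an alternative fit, and the main fit had no block. Over the 11 same-numbered pairs of depots without the shallow library, 10 correlated above 0.1 (0.0796 to 0.748), so libraries of one depot are not independent of those of the other. Same-numbered libraries of the genotypes (mean correlation -0.0647) and siRNAs (mean -0.0317) showed no such positive mean correlation.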

Additional observations from a re-analysis of the deposited data

Results flagged for a closer look

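The effect of siC/EBPb differed between the genotypes, by the edgeR interaction test, for 5 of the 36 tested genes, 4 in each depot, beside 2.19% of all genes with negative and 1.32% with positive calls in iWAT and 3.33% and 3.01% in eWAT. Cyp2e1, a cytochrome P450, had an interaction of -3.80 in iWAT (edgeR adjusted p = 0.00214) and -3.45 in eWAT (edgeR adjusted p = 0.00193). Its levels in aKO siC/EBPb cells are near the floor, so the size of these values is uncertain. Npr3, the natriuretic peptide clearance receptor, had -1.11 in iWAT (edgeR adjusted p = 0.000182) and -1.07 in eWAT (edgeR adjusted p = 8e-05). Npr1, the guanylyl cyclase receptor of atrial natriuretic peptide, had -1.29 in eWAT (edgeR adjusted p = 0.0094). Aoc3, an amine oxidase, had -0.48 in iWAT (edgeR adjusted p = 0.0419) and -0.45 in eWAT (edgeR adjusted p = 0.0361), and Prkar2b, a regulatory subunit of protein kinase A, had -0.94 in iWAT (edgeR adjusted p = 0.031). The Aoc3 calls were lost without most single libraries of the contrast (edgeR adjusted p up to 0.173 in iWAT and 0.13 in eWAT), and that of Prkar2b without 7 (up to 0.119). Each value is the log2 fold change of siC/EBPb over siNS in aKO cells minus that in Cont cells. The mean Cebpb level left by siC/EBPb was lower in aKO than in Cont cells of each depot. The part of that difference in these values was not tested.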

How the results depend on the processing

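Of 179 results in which a member passed the test, 118 passed in every alternative tried, 61 were lost in at least 1 and none changed direction. The counts of members changed moved by more than 1.5 times in these cases, and the cause was not tested. For aKO against Cont with siNS they were 21 in iWAT and 22 in eWAT with no count filter, 14 and 20 with limma voom, and 2 and 18 with the groups of the contrast alone, beside 8 and 11. For aKO against Cont with siC/EBPb in iWAT they were 12 with no filter and 4 with the groups alone, beside 7. For the interaction they were 15 in iWAT and 18 in eWAT with no filter, 8 and 11 with limma voom, and 2 and 7 with the groups alone, beside 4 in each. For iWAT against eWAT, where none passed, Cont siNS gave 2 with no filter, 2 with limma voom and 1 with the groups alone, and Cont siC/EBPb gave 4, 5 and 8, and 1 with DESeq2. With the replicate number as a block for pairs of depots, 1 passed in Cont siNS and 2 in Cont siC/EBPb, where 1 pair correlated at 0.0796. With the replicate number as a block across genotypes and siRNAs, 12 members in iWAT and 15 in eWAT passed for aKO against Cont with siNS, no call was lost and 29 were added over all comparisons. Leaving out 1 library gave 2 to 12 members in iWAT and 5 to 15 in eWAT for aKO against Cont with siNS, and 5 to 8 and 3 to 7 with siC/EBPb. It gave 13 to 18 in each depot for siC/EBPb in Cont cells, 21 to 28 in iWAT and 25 to 30 in eWAT for siC/EBPb in aKO cells, 2 to 5 and 3 to 6 for the interaction, 22 to 27 and 19 to 27 for aKO siC/EBPb against Cont siNS, 0 to 2 between depots with siNS and 0 to 3 with siC/EBPb. The shallow library limits low genes in iWAT aKO siNS, and it departed from its group for abundant genes as well. Its 20 other genes of fatty acid uptake summed to 15237 CPM, against 7474 and 7408 CPM in the other libraries of the group. Its cAMP branch members summed to 819 CPM, against 1282 and 1254 CPM.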
